A study of Mus musculus with 58 samples.

Results

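Chemokines are small secreted or membrane-anchored proteins, and their receptors are the G protein-coupled receptors by which leukocytes read them. The 49 genes described here are all those measured by an array cluster with a single gene symbol that begins with Ccl, Cxcl, Ccr or Cxcr and a digit, with Cx3cl1, Cx3cr1, Xcl1 and Xcr1 added and with the interferon-induced ligands Cxcl9, Cxcl10 and Cxcl11 left aside. They comprise 31 ligands and 18 receptors among 22180 genes tested, and for the 1 gene with more than one cluster, Ccl27a, the brighter cluster was used. Members of the Ccl19, Ccl21 and Ccl27 families that share a cluster with other symbols, 33 clusters in all, were not used.

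The RNA came from 29 liver tumors and 29 samples of normal liver, each on its own array, from adult mice of a mixed FVB/NJ, C57BL/6 and 129/Sv background. Every animal, including those that gave normal liver, had received adeno-associated virus (AAV), a gene transfer vector, soon after birth, and the study asks whether vector insertion contributed to liver cancer. As read here, the titles name 39 animals, of which 18 gave a tumor and a normal liver and 1 gave 2 tumors (tumors 22 and 26). Normal livers 26 and 27 share an animal name with different marks (+/- and -/-) and were counted as 2 animals. The labels give no vector dose, the title of normal liver 4 alone names GFP, and no group here is defined by a vector. Of the tumors, 17 were labelled male, 11 female and 1 without sex, and of the normal livers 20 were labelled male and 9 female. A mark of -/- stands in the titles of 5 tumors and 4 normal livers and a mark of +/- in those of 5 tumors and 5 normal livers, with no gene named, so the marks were not compared. Tumors and normal livers numbered 1 to 16 come from the same animal where the number is the same, tumor 19 shares an animal with normal liver 17, and tumor 20 shares one with normal liver 19.

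All values are deposited log2 values per array, so a difference of 1 is a doubling, and levels of different genes are not compared because each probe set has its own response. Pairwise correlations of arrays ran from 0.835 to 0.987, and tumor 9 (mean correlation with the other arrays 0.873) and tumor 20 (0.911) were lowest. Xist and Y-linked genes went against the gender label on 7 arrays, 4 of tumors and 3 of normal liver. Hepatocyte markers were bright in both tissues, with a mean over 6 genes of 7.74 to 12.81 in tumors (median 11.06) and 10.71 to 12.90 in normal liver (median 12.72), and 4 of the 6 were lower in tumors. Of the 49 genes, 16 never exceeded 8.30 on any array, the 95th percentile of the highest values of 1105 olfactory receptor genes, which liver is not known to use. Dim values of such genes carry no stated detection limit.

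In normal liver, resident macrophages (Kupffer cells), sinusoidal endothelium and stellate cells release chemokines at low levels, and Cxcl12 from stromal cells holds Cxcr4-bearing leukocytes in the tissue. After injury or infection, monocytes are drawn in by Ccr2 ligands and neutrophils by Cxcr2 ligands, which many cell types make when NF-kappaB is activated. Homeostatic ligands such as Cxcl13 and Ccl21 and their receptors Cxcr5 and Ccr7 order lymphocytes into follicles and, in chronic inflammation, into tertiary lymphoid tissue.

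Between tumors and normal liver, the ligands of tissue residence and follicles, Cxcl12 and Cxcl13, the eosinophil ligand Ccl24 and the macrophage ligand Ccl9 fell in tumors, whereas the receptor Cxcr4 and both membrane-anchored ligands, Cx3cl1 and Cxcl16, rose. By limma with the animal as a random block and Benjamini-Hochberg adjustment over all genes, 16 of 49 members passed an adjusted p of 0.05. Of these 11 were higher and 5 lower in tumors. That is 32.7% of the members, against 32.1% of all genes (17.9% higher and 14.3% lower), so the number of calls was near the background. Of the 31 ligands 9 rose and 5 fell, and of the 18 receptors 2 rose and 0 fell. The median change was -0.03 over the members and -0.02 over all genes. Only Cxcl13 was called with a log2 change of at least 1, against a background of 1.98% of all genes. At an unadjusted p of 0.05, 24 members passed (background 42% of genes). With each array centred on its median, 18 members were called, 13 higher and 5 lower, and the split over all genes moved to 4689 higher and 1727 lower, against 3964 and 3166 with the values as deposited.

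**Figure D1:**
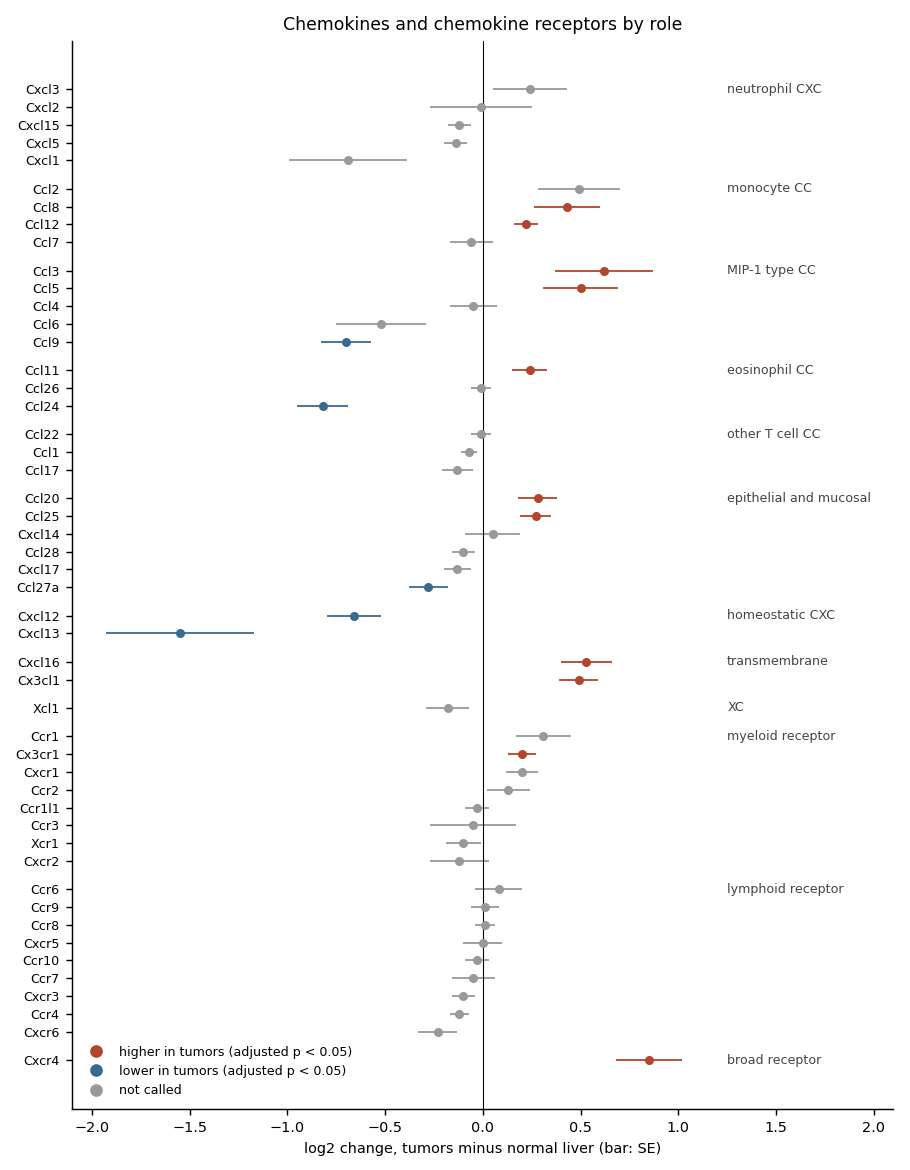
Log2 change (tumors minus normal liver, x axis) with its standard error for each of the 49 genes, grouped by role from top to bottom. Red points are the 11 genes higher and blue points the 5 genes lower in tumors at an adjusted p of 0.05, and grey points were not called. Cxcl13 lies farthest to the left and Cxcr4 farthest to the right.

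All 16 called members overlapped between the tissues. The share of all genes that overlap was not computed, so this cannot be called particular to the family. The spread (SD) was larger in tumors for 34 of the 49 members, against 67.4% of all genes. Since whole tissue was measured, fewer cells of a type and less RNA per cell cannot be told apart for any member.

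Among the eosinophil ligands, Ccl24 (eotaxin-2) had the smallest adjusted p of the family. Its lowest, median and highest log2 values were 5.87, 6.23 and 7.25 in tumors, against 6.27, 7.04 and 9.37 in normal liver. The tumors crowded at the low end, and 15 of 29 lay below the lowest normal liver. Ccl24 fell by 0.82 (SE 0.13), a 1.76-fold lower level (limma, adjusted p = 7.52e-07), and it was lower in the tumor of 16 of 18 pairs. The other eotaxin, Ccl11, moved the opposite way by a small amount, with 6.92, 7.46 and 9.31 in tumors and 6.74, 7.26 and 7.74 in normal liver. Tumor 9 held the highest value, and 6 tumors exceeded every normal liver. Its change was 0.24 (SE 0.09, limma adjusted p = 0.0366), and it lost the call without tumors 6 (0.053), 7 (0.0543) or 10 (0.0614) or without normal livers 9 (0.0592) or 15 (0.0503). Ccl26 was not called (change -0.01).

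Their shared receptor, Ccr3, which eosinophils carry, was not called (-0.05, SE 0.22, limma adjusted p = 0.89) but varied widely in both tissues. It ran from 4.81 to 8.40 in tumors (median 5.42) and from 4.91 to 9.36 in normal liver (median 5.66). Both highest values came from the same animal, tumor 15 and normal liver 15. Over the 18 pairs the Ccr3 level of a tumor went with that of the normal liver of the same animal (r = 0.87, permutation p = 3e-05, Spearman rho 0.75). The relation remained at r = 0.70 without the 2 animals whose normal livers lay farthest from the median.

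The macrophage-derived ligands of the MIP-1 type act mainly through Ccr1. Ccl9, made by macrophages in rodents, measured 8.66, 10.12 and 10.94 in tumors at its lowest, median and highest, against 9.86, 10.76 and 11.84 in normal liver. The bulk of both groups overlapped, with 7 tumors below every normal liver and tumor 9 lowest. It fell by 0.70 (SE 0.13), 1.62-fold (limma, adjusted p = 1.28e-05), and was lower in 16 of 18 pairs. The related Ccl6 spanned 6.88 to 10.86 in tumors (median 8.70) and 7.46 to 11.39 in normal liver (median 9.08), without a call over all arrays (-0.52, SE 0.23, adjusted p = 0.0712). When only the 18 pairs were fitted, each animal serving as its own block, Ccl6 fell by 0.69 (adjusted p = 0.00244).

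Ccl5 (RANTES), which activated T cells and NK cells make, ran from 8.26 to 12.79 in tumors (median 9.86) and from 8.37 to 10.94 in normal liver (median 9.30). Tumor 9 held its top value, and 2 tumors exceeded every normal liver. The rise of 0.50 (SE 0.19, limma adjusted p = 0.0332) lost its call without tumors 6 (0.0503), 9 (0.0569) or 27 (0.0509) or normal liver 2 (0.0524). Ccl3 (MIP-1 alpha) ran from 7.09 to 11.31 in tumors (median 8.05) and from 6.67 to 12.54 in normal liver (median 7.37). The top of both groups was the same animal, tumor 16 and normal liver 16. Its change of 0.62 (SE 0.25, adjusted p = 0.0449) passed narrowly, and leaving out any one of 29 arrays ended the call (up to 0.078 without tumor 16), whereas without normal liver 16 it was 0.79 (adjusted p = 0.00133). Ccl4 (MIP-1 beta) was not called (-0.05, adjusted p = 0.796). Of the receptors, Ccr1 ran from 5.32 to 7.56 in tumors (median 5.96) and from 5.13 to 8.25 in normal liver (median 5.68), with a change of 0.31 (SE 0.14, adjusted p = 0.0781). It passed within the 18 pairs (0.42, adjusted p = 0.0159) and without normal liver 16 (0.39, adjusted p = 0.0073) or normal liver 19 (0.35, adjusted p = 0.0407).

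Markers of Kupffer cells differed between the tissues too. All 5 (Clec4f, Vsig4, Timd4, Cd5l and Marco) fell in tumors, by a median of -2.06 on the log2 scale. Their mean level ran from 6.40 to 10.61 in tumors (median 7.82) and from 8.14 to 10.92 in normal liver (median 9.86). Among 11 markers of monocytes and macrophages at large, 4 rose (Cd68, Cd14, Trem2 and Gpnmb) and 1 fell (Mrc1), with a mean over the list of 8.16 to 9.98 in tumors (median 9.14) and 7.74 to 10.67 in normal liver (median 8.75). The part of these cells in the levels of Ccl24, Ccl9 and Ccl6 was not tested.

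Of the 4 monocyte ligands, which act on Ccr2 and related receptors, 2 rose. Ccl12 (MCP-5) was dim, at 4.53, 4.98 and 6.22 in tumors and 4.44, 4.72 and 5.08 in normal liver, and on no array did it exceed the olfactory receptor level given above. Even so 9 tumors lay above every normal liver, and the change was 0.22 (SE 0.06, limma adjusted p = 0.00598). Ccl8 (MCP-2) had a few high values in each tissue, with 5.74, 6.54 and 8.74 in tumors and 5.87, 6.40 and 9.21 in normal liver. Its change of 0.43 (SE 0.17, adjusted p = 0.0448) lost the call when any one of 27 arrays was left out, at most 0.0787 without tumor 9. Ccl2 (MCP-1) ran from 7.55 to 11.79 in tumors (median 8.66) and from 7.60 to 12.40 in normal liver (median 8.12). Over all arrays its change was 0.49 (SE 0.21, adjusted p = 0.0593). Without normal liver 16, the highest normal array, it was 0.64 (adjusted p = 0.00163), and it also passed without tumors 1, 3, 12 or 20 or normal liver 5 (0.038 to 0.0493). Ccl7 was not called (-0.06). The receptor Ccr2, of inflammatory monocytes, spanned 6.44 to 8.31 in tumors (median 7.07) and 6.59 to 7.81 in normal liver (median 6.95). It was not called (0.13, adjusted p = 0.349), although 5 tumors lay above and 4 below all normal livers.

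Homeostatic ligands both fell. Cxcl13, which draws B cells through Cxcr5, had the largest change and the largest spread of the family (SD 1.66 in tumors and 1.57 in normal liver). Its lowest, median and highest values were 6.45, 8.79 and 12.79 in tumors, against 7.60, 10.50 and 12.79 in normal liver. Both tissues covered most of the same range, but 17 tumors and 5 normal livers were under 9, and 2 tumors and 7 normal livers were above 12. Cxcl13 fell by 1.55 (SE 0.38), 2.94-fold (limma, adjusted p = 0.00115), and was lower in 16 of 18 tumors than in the normal liver of the same animal. Its receptor Cxcr5 ran from 6.94 to 9.88 in tumors (median 7.45) and from 7.20 to 8.19 in normal liver (median 7.50) and was not called (change 0.00).

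Cxcl12 (SDF-1), the stromal ligand of Cxcr4, measured 8.76, 10.68 and 11.80 in tumors and 9.73, 11.22 and 11.65 in normal liver. Tumors reached lower, with 4 below every normal liver and 1, tumor 9, above. It fell by 0.66 (SE 0.14), 1.59-fold (limma, adjusted p = 0.000167), in 15 of 18 pairs. Cxcr4 itself, carried by most leukocytes and by some endothelial and tumor cells, measured 7.72, 9.26 and 11.37 in tumors, against 7.81, 8.24 and 9.37 in normal liver. Tumors extended far upward, and 12 of 29 lay above every normal liver. It rose by 0.85 (SE 0.17), 1.81-fold (adjusted p = 5.72e-05), in 15 of 18 pairs. In 13 of 18 animals the tumor had more Cxcr4 and less Cxcl12 than the normal liver. With 15 of 18 pairs for each gene alone, a count near this was largely set in advance, and joint change was not tested. Ackr3, the scavenging receptor that removes Cxcl12, rose by 0.68 (SE 0.10, adjusted p = 1.28e-07).

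Endothelial and stromal markers also differed between the tissues. Of 8 sinusoidal endothelium markers 6 fell (list mean 7.91 to 10.19 in tumors, 8.82 to 10.20 in normal liver), and of 7 markers of other endothelium Pecam1, Cd34 and Esm1 rose (8.18 to 10.40 in tumors, 8.33 to 9.78 in normal liver). Among 9 stellate cell and fibroblast genes Col1a1, Col1a2, Col3a1 and Acta2 rose and Lrat, Reln and Dcn fell (7.84 to 10.45 in tumors, 8.38 to 10.20 in normal liver). Their part in Cxcl12, Cxcr4 and Ackr3 was not tested.

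**Figure D2:**
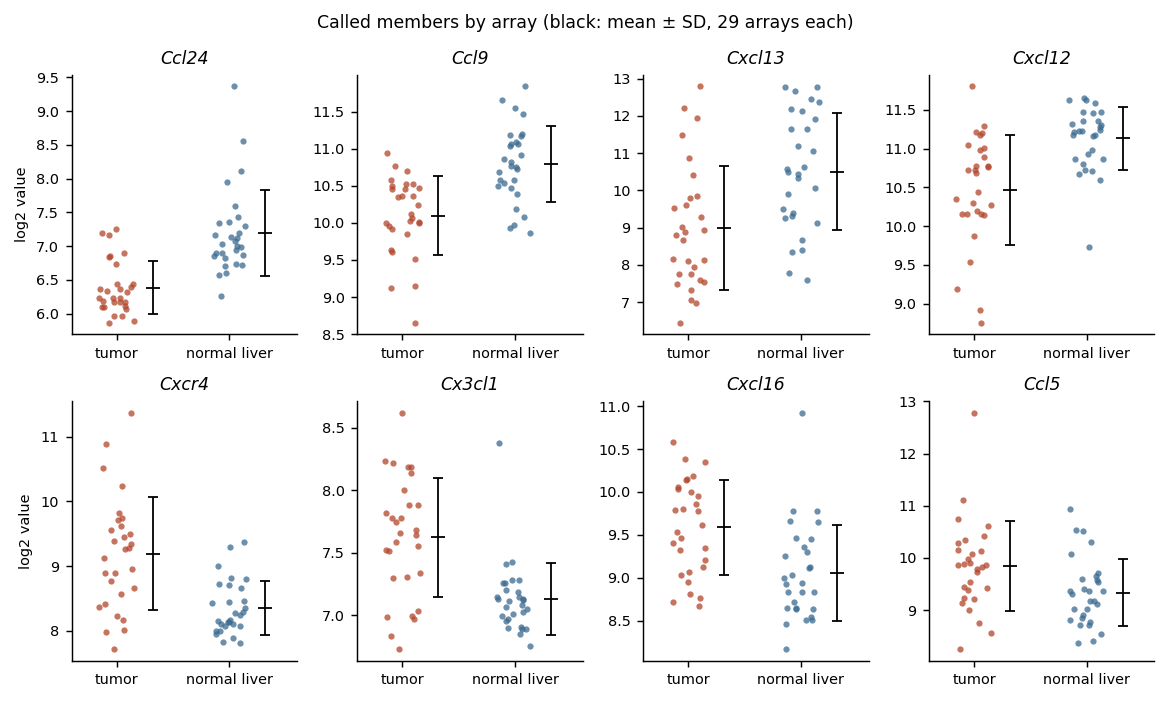
Log2 values (y axis) of 8 called members on each of 29 tumor arrays (left, red) and 29 normal liver arrays (right, blue), with the mean and SD in black. Groups overlap in every panel, and 15 tumors lie below all normal livers for Ccl24 and 12 above all of them for Cxcr4.

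**Figure D3:**
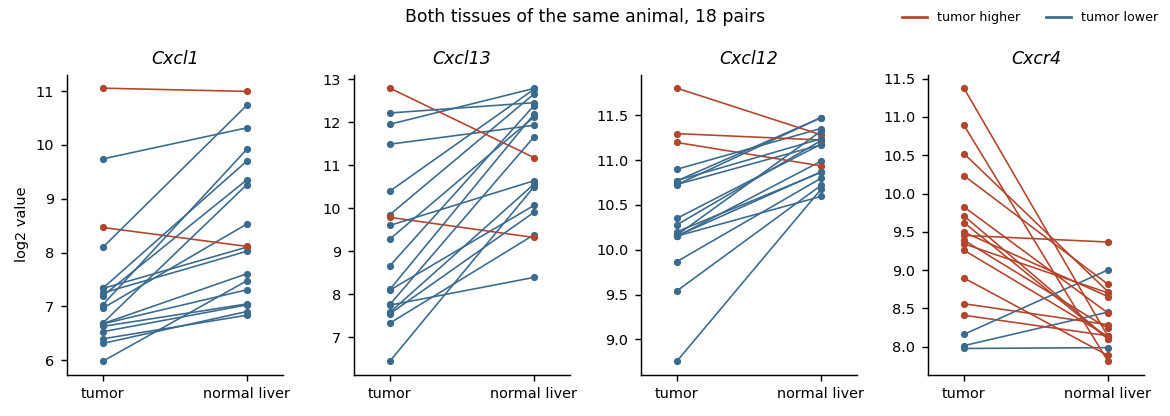
Log2 values of Cxcl1, Cxcl13, Cxcl12 and Cxcr4 in both tissues of the 18 animals that gave a pair, tumor left and normal liver right, with a line for each animal. Lines are blue where the tumor was lower (16 animals for Cxcl1 and Cxcl13, 15 for Cxcl12) and red where it was higher (15 animals for Cxcr4).

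Both transmembrane ligands rose. Cx3cl1 (fractalkine), which endothelium and epithelium carry as an adhesive ligand of Cx3cr1, measured 6.73, 7.66 and 8.62 in tumors, against 6.75, 7.11 and 8.38 in normal liver. Normal liver 16 stood alone at the top of the normal group. Cx3cl1 rose by 0.49 (SE 0.10), 1.40-fold (limma, adjusted p = 7.08e-05), in 11 of 18 pairs. Cxcl16, ligand of Cxcr6 and a scavenger of oxidised lipid, measured 8.67, 9.62 and 10.58 in tumors and 8.17, 8.94 and 10.92 in normal liver. Again normal liver 16 was highest, and no tumor lay outside the normal range. The change was 0.53 (SE 0.13), 1.44-fold (adjusted p = 0.00159), and higher in 15 of 18 pairs. Ccl24, Cx3cl1 and Cxcl16 were the only called members that kept their call in every other way of fitting all or part of the arrays in which they were run. These were 13 for Cx3cl1 and Cxcl16 and 12 for Ccl24, which fell under the filter on dim genes.

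Of the receptors of these ligands, Cx3cr1 passed and Cxcr6 did not. Cx3cr1, of patrolling monocytes and NK cells, ran from 8.44 to 9.47 in tumors (median 8.93) and from 8.10 to 9.26 in normal liver (median 8.83), with 5 tumors above every normal liver. It rose by 0.20 (SE 0.07, limma adjusted p = 0.024). Cxcr6, of liver-resident T and NKT cells, ran from 5.48 to 7.86 in tumors (median 6.03) and from 5.79 to 7.02 in normal liver (median 6.35). Here 7 tumors lay below all normal livers and tumor 9 above them. The change was -0.23 (SE 0.10, adjusted p = 0.0622), and without tumor 9 it was -0.29 (adjusted p = 0.00286). It also passed without tumors 6, 15, 19 or 20 or normal livers 20 or 29 (0.035 to 0.0492). In 8 of 18 pairs Cx3cl1 and Cx3cr1 were both higher in the tumor, and in 11 of 18 Cxcl16 was higher and Cxcr6 lower. Whether the changes within pairs went together was not tested.

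Among 6 epithelial and mucosal ligands, Ccl25 and Ccl20 rose, Ccl27a fell, and Ccl28, Cxcl14 and Cxcl17 were not called. Ccl25 (TECK), ligand of Ccr9, measured 7.60, 8.05 and 9.14 in tumors and 7.21, 7.88 and 8.38 in normal liver, with 7 tumors above every normal liver and tumor 16 highest. Its change was 0.27 (SE 0.08, limma adjusted p = 0.00388). Ccl20, ligand of Ccr6, measured 6.82, 7.30 and 8.54 in tumors and 6.65, 7.10 and 7.65 in normal liver, with 6 tumors above. Its change was 0.28 (SE 0.10, adjusted p = 0.0196). Ccl27a, a ligand of Ccr10, measured 6.79, 7.51 and 8.24 in tumors and 6.78, 7.85 and 8.46 in normal liver. All tumors lay within the normal range, and it fell by 0.28 (SE 0.10, adjusted p = 0.0167), in 15 of 18 pairs. The mean of both of its clusters fell by 0.29. None of the receptors Ccr9 (0.01), Ccr6 (0.08) and Ccr10 (-0.03) was called.

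The T cell ligands Ccl1, Ccl17 and Ccl22, which act through Ccr8 or Ccr4, did not pass. Ccl1 ran from 6.00 to 6.70 in tumors (median 6.35) and from 6.16 to 6.58 in normal liver (median 6.38), with 6 tumors below and 2 above. Ccl22 ran from 6.15 to 7.17 in tumors (median 6.61) and from 6.40 to 7.06 in normal liver (median 6.61), with 5 tumors below and 2 above. Ccl17 differed by -0.13 (not called, limma adjusted p = 0.187), and its single high value was 7.67 in normal liver 16. Ccr4 (-0.12, adjusted p = 0.0552) passed when any one of 12 arrays was left out, lowest at 0.00851 without tumor 9, and Ccr8 did not (0.01, adjusted p = 0.924). No lymphoid receptor of the 9 measured was called. Of 14 T and NK cell markers Cd4 rose and Prf1 fell, and of 8 B and plasma cell markers 0 changed, with list means of 6.46 to 9.09 and 6.75 to 11.70 in tumors, and of 6.60 to 7.54 and 7.11 to 8.98 in normal liver.

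None of the 5 neutrophil ligands was called over all arrays. Cxcl1 (KC), ligand of Cxcr2, ran from 5.98 to 11.52 in tumors (median 7.10) and from 6.50 to 11 in normal liver (median 7.50). Its change was -0.69 (SE 0.30, limma adjusted p = 0.0743), yet it was lower in the tumor of 16 of 18 pairs. In the fit of the pairs it fell by 1.16 (SE 0.21, adjusted p = 0.000604). Among unpaired animals (11 tumors and 11 normal livers) it was 0.20 (SE 0.42, adjusted p = 0.833), and the difference between paired and unpaired animals was not tested. Single arrays also decided the call over all arrays, since Cxcl1 passed without tumor 16 (-0.81, adjusted p = 0.0248), tumor 20 (-0.77, 0.0383) or tumor 23 (-0.82, 0.0168). Cxcl5 passed without tumor 23 (-0.15, 0.0396) and Cxcl15 without tumor 20 (-0.15, 0.021). The receptor Cxcr2 was not called (-0.12, adjusted p = 0.57). Cxcr1 had 7 tumors above every normal liver, ran from 6.82 to 8.59 in tumors (median 7.16) and from 6.83 to 7.59 in normal liver (median 7.09), and just missed the threshold (0.20, adjusted p = 0.0508). It passed when any one of 21 arrays was left out (0.0326 to 0.0493). Of 13 neutrophil markers, Cxcr2 among them, 0 changed, and their mean ran from 6.44 to 10.51 in tumors (median 6.87) and from 6.41 to 10.68 in normal liver (median 6.84).

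Analysed by themselves, the 18 pairs gave 12 called members, 5 higher and 7 lower in tumors, where 20.8% of all genes were called. Of these, 9 were also called over all arrays, and Ccl6, Ccr1 and Cxcl1 were added. Ccl3, Ccl5, Ccl8, Ccl11, Ccl12, Ccl20 and Cx3cr1 did not pass there. The arrays of animals without a pair gave 4 called members (Ccl12, Ccl24, Cx3cl1 and Cxcl16), where 9.35% of all genes were called. All 16 members called over all arrays had the same sign in both subsets, which is partly built in because the same arrays gave the calls. Without 5 arrays that stand apart (tumors 9, 16, 20 and 23 and normal liver 16, described further on), 29 members were called, 13 higher and 16 lower in tumors, where 50.2% of all genes were called. With arrays weighted by their quality in the fit of all arrays, 31 members were called, 14 higher and 17 lower in tumors, where 51.9% of all genes were called.

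Individual tumors lay outside the range of the normal livers for different members. At least 1 member exceeded the highest normal liver in 22 of 29 tumors, and the median tumor had 2 members above and 2 below the normal range. For these counts the share over all genes was not computed, so they cannot be set against what chance alone would give. Over 4 tumors lay above every normal liver for 8 members (background 12.4% of genes), namely Cxcr4, Ccl12, Ccl25, Cxcr1, Ccl11, Ccl20, Ccr2 and Cx3cr1. Over 4 tumors lay below for 8 members (background 10.1%), namely Ccl24, Ccl9, Cxcl13, Cxcr6, Ccl1, Cxcl2, Ccl22 and Cxcl3. Tumor 13 had 15 members below the lowest normal liver (background 7.69% of genes) and tumor 5 had 11 (background 8.55%).

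**Figure D4:**
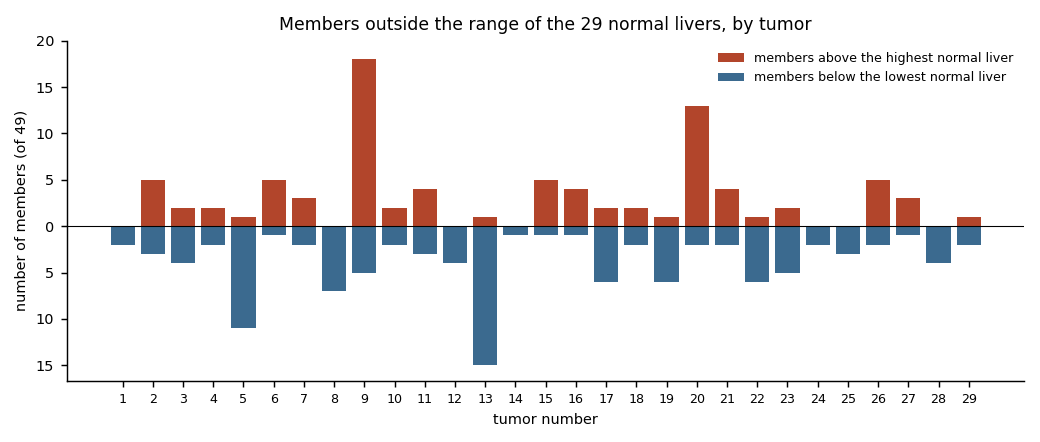
Number of the 49 members above the highest (red, upward) and below the lowest (blue, downward) of the 29 normal livers, for each tumor by number. Tumor 9 has 18 members above, tumor 20 has 13 above, and tumors 13 and 5 have 15 and 11 below.

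Tumor 9 held the highest value of all tumors for 18 members, where it did so for 13.6% of all genes. It lay above every normal liver for 18 (background 15.7%), of which 11 were receptors. These included the homing receptors of lymph nodes and follicles, with Ccr7 at 10.28 against at most 8.60 in normal liver, Cxcr5 at 9.88 against at most 8.19, and Ccr6 at 9.45 against at most 7.15. Ccl5 and Cxcl13 both stood at 12.79, and Xcl1, a ligand made by T and NK cells, at 8.76 against at most 7.38. Its own normal liver had 7.88 for Ccr7, 8.15 for Cxcr5 and 5.93 for Ccr6, all within the range of the others. In this tumor the mean of the B and plasma cell markers was 11.70 (median of tumors 7.22), that of T and NK cell markers 9.09 (6.78) and that of mast cell markers 8.05 (5.52), each the highest of 29 tumors, and that of hepatocyte markers was the lowest, 7.74 (11.06). The part of these cells in the values was not tested. Without tumor 9, Cxcr3 (-0.14, limma adjusted p = 0.0208) and Xcl1 (-0.25, adjusted p = 0.0164) passed as lower in tumors.

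Tumor 20 lay above every normal liver for 13 members (background 19.4% of genes), 8 of them receptors, and held the highest tumor value of Ccl6 (10.86), Ccr2 (8.31), Cxcr2 (9.65) and Cxcl14 (10.21). Normal liver 19, from the same animal, held the highest normal value of Cxcl14 (11.30), Cxcr2 (10.26) and Cxcr4 (9.37). Both arrays were also the highest of their tissue for the neutrophil markers, at 10.51 in the tumor and 10.68 in the normal liver. That list contains Cxcr2, and without it the means of 12 markers were 10.58 and 10.72, still the highest of each tissue. The part of these cells was not tested. Without tumor 20, Cxcl17 passed as lower in tumors (-0.17, limma adjusted p = 0.0368).

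Acute inflammatory ligands were high on 3 arrays, those of tumor 16, tumor 23 and normal liver 16. Tumor 16 and normal liver 16 are from the same female-labelled animal, and tumor 23 is from an animal without a sex label and with a -/- mark. Cxcl2 (MIP-2), a neutrophil ligand, stood at 12.42 in tumor 16 and 12.11 in tumor 23 and at 12.17 in normal liver 16. The other 27 tumors ran from 6.80 to 8.43 (median 7.41) and the other 28 normal livers from 7.08 to 9.21 (median 7.63). No other array came near these 3 for Cxcl2.

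Cxcl3 had 8.62 in tumor 16 and 8.11 in tumor 23 (other tumors 4.50 to 6.87) and 8.68 in normal liver 16 (other normal livers 4.82 to 5.59). Ccl4 had 9.04 and 9.60 in those tumors (others 7.28 to 8.18) and 10.16 in that normal liver (others 7.24 to 8.27). For Ccl2 the tumors had 10.50 and 11.79 (others 7.55 to 9.70) and the normal liver 12.40 (others 7.60 to 9.11). Cxcl1 differed in that other arrays reached high values too, with 11.06 and 11.52 in those tumors (others 5.98 to 9.74) and 11 in that normal liver (others 6.50 to 10.74). A list of 25 genes that induce these ligands or are induced with them, among them Tnf, Il1b, Nfkbia and Icam1, had its highest means on the same arrays, 9.25 in tumor 16 and 9.19 in tumor 23 (tumor median 7.93) and 9.98 in normal liver 16 (normal median 7.99). The neutrophil marker mean was 8.34 in tumor 16, 7.76 in tumor 23 and 9.40 in normal liver 16, below tumor 20 and normal liver 19 (8.31, 7.72 and 9.35 without Cxcr2). Normal liver 16 was also the highest of the 29 normal livers for the means of monocyte and macrophage (10.67), Kupffer cell (10.92), other endothelial (9.78), stellate cell and fibroblast (10.20) and cholangiocyte markers (8.79), and 28th for hepatocyte markers (12.07). The part of these genes and cells was not tested.

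Cxcl1, Cxcl2 and Cxcl3 lie near each other on mouse chromosome 5, and the 250 bases before the start of each gene are shown because these 3 ligands were high together on those arrays. They are RefSeq sequences of build GRCm38.p6, on the + strand, at chr5:90890995-90891244, chr5:90903649-90903898 and chr5:90785851-90786100, in promoters upstream of the first exon. Capitals mark matches to GGGNNNTTCC, the kappaB motif that NF-kappaB proteins bind, searched on both strands as GGGNNNTTCC or GGAANNNCCC.
Cxcl1: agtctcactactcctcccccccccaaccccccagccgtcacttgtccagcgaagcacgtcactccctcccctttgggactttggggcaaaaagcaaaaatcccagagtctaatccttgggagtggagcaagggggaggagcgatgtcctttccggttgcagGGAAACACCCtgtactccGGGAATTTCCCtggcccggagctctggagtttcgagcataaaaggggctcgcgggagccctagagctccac
Cxcl2: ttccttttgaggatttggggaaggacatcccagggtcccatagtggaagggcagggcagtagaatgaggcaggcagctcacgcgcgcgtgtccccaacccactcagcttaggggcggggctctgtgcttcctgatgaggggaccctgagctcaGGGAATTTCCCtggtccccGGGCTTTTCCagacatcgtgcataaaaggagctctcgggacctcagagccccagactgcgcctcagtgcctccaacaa
Cxcl3: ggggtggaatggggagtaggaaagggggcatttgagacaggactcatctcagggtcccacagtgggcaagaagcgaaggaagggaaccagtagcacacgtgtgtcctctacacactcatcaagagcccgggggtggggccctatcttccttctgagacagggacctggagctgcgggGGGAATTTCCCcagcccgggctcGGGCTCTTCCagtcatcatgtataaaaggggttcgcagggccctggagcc
All 3 windows hold GGGAATTTCCC, in which matches on both strands overlap, beginning 71 bases before the start of Cxcl1, 97 before that of Cxcl2 and 73 before that of Cxcl3. Each window holds a second match. The motif occurred in 4.65% of 32851 promoter windows of this length and in 8 of the 36 members that had a window (Ccl1, Ccl9, Ccl20, Ccr3, Ccr6, Cxcl1, Cxcl2 and Cxcl3), and the 10 bases GGGAATTTCC on either strand in 0.0852% of windows. These matches describe letters only, and 13 members had no window in the table.

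The 2 tissues of an animal resembled each other for several members. Over the 18 pairs, the correlation between tumor and normal liver was 0.5 or more for 15 of 49 members, against a background of 8.07% of genes, with a median r of 0.30 over members and 0.15 over all genes. Apart from Ccr3, it stayed above 0.5 without the 2 farthest animals for Ccl6 (r = 0.76, permutation p = 0.00019, rho 0.74, then r = 0.67) and Cxcl1 (0.73, p = 0.00029, rho 0.84, then 0.63). The same held for Cxcl12 (0.64, permutation p = 0.0033, rho 0.68, then 0.56), Cxcl13 (0.52, p = 0.0261, rho 0.63, then 0.58) and Cxcr5 (0.54, p = 0.0323, rho 0.29, then 0.57). These p-values are not adjusted for the 49 genes examined. For Cxcl2 (0.91, then 0.05), Ccl3 (0.74, then -0.28) and Cxcl3 (0.71, then -0.70) the relation rested on the animal of normal liver 16 and one other. The correlation also fell under 0.5 for Ccl2 (0.6, then 0.33), Ccl4 (0.84, then 0.35) and Ccr1 (0.69, then 0.46). So it did for Ccl26 (0.55, then 0.48), Cxcl14 (0.76, then 0.42) and Cxcr2 (0.69, then 0.39). How many of all genes stay above 0.5 in this way was not computed.

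**Figure D5:**
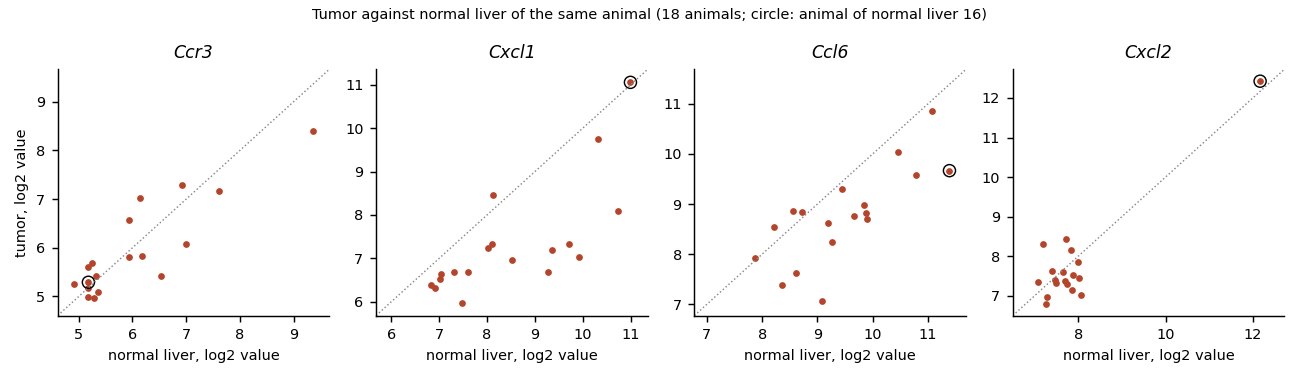
Log2 value in the tumor (y axis) against that in the normal liver of the same animal (x axis) for Ccr3, Cxcl1, Ccl6 and Cxcl2 in 18 animals, with a dotted line of equality and a circle on the animal of normal liver 16. Values of Ccr3, Cxcl1 and Ccl6 rise together in both tissues, with Cxcl1 below the line in 16 of 18 animals, whereas for Cxcl2 only the circled animal stands apart.

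Levels of ligands and their receptors were set against each other over 28 tumors, 1 per animal, for 12 pairs known to bind. After Benjamini-Hochberg adjustment over the 12, permutation tests passed for 7. Xcl1 and Xcr1, the receptor of cross-presenting dendritic cells, were most closely related (r = 0.83, adjusted p = 0.00012, the smallest these permutations can give, and rho 0.84). Without the 2 tumors farthest from the ligand median r was 0.77, and in the 29 normal livers it was 0.59. Cxcl1 and Cxcr2 gave 0.57 (raw permutation p = 0.00574, adjusted 0.0138, rho 0.50), then 0.70, and 0.70 in normal liver. Cxcl13 and Cxcr5 gave 0.52 (p = 0.00193, adjusted permutation p = 0.00657, rho 0.48), which rested on 2 tumors (0.21 without them). Likewise Cxcl12 and Cxcr4 gave 0.46 (permutation p = 0.0146, adjusted 0.0251, rho 0.25), 0.29 without 2 tumors, and -0.55 in normal liver. Ccl22 and Ccr4 (r = 0.57), Ccl1 and Ccr8 (0.46) and, with the opposite sign, Ccl25 and Ccr9 (-0.56) also passed, with rho of 0.46, 0.58 and -0.52 and adjusted permutation p of 0.00657, 0.0251 and 0.00657. For Ccl25 and Ccr9 r was 0.31 in the 29 normal livers, and without tumors 9, 16, 20 and 23 it was -0.44 (adjusted permutation p = 0.0622). Centring each array on its median left 0.41 for Ccl22 and Ccr4 and 0.13 for Ccl1 and Ccr8. For Xcl1 and Xcr1 it left 0.8, and for Ccl25 and Ccr9 -0.68. Ccl1, Ccl22, Ccr4, Ccr8, Ccr9 and Xcr1 never exceeded the olfactory receptor level given above on any array, so each of these relations involves a dim gene.

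The tumor change was also compared between animals labelled male and female. The tumor change in males minus that in females passed for 0 of 49 members (background 0% of genes) by limma, and for 1, Ccl7, at an unadjusted p of 0.05 (0.51, SE 0.22, background 4.53%). In normal liver, males minus females passed for 0 members (background 0.0496%), and 5 had an unadjusted p under 0.05 (Ccl4, Ccl7, Cxcl1, Cxcl14 and Cxcr2, background 3.69%). In tumors 0 members passed for males minus females (background 0.0225%), with 3 at an unadjusted p under 0.05 (Ccl22, Cxcl1 and Cxcl2, background 9.96%). Taken by themselves, males had 12 called members (7 higher and 5 lower in tumors, background 32.3%) and females 1, Ccl9 (-0.82, SE 0.21, background 2.06%). Female-labelled arrays were 11 of tumors and 9 of normal liver.

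Other genes of the pathway came from a list of 30, of which 26 were measured by a single-symbol cluster. Of these 7 rose and 4 fell, with a median change of 0.08, where 32.1% of all genes were called (17.9% higher and 14.3% lower). Of the scavenging receptors, which clear chemokines without signalling through G proteins, Ackr3 rose as given above, Ackr1 fell by 0.33 (SE 0.10, limma adjusted p = 0.0071) and Ackr4 fell by 0.17 (SE 0.05, adjusted p = 0.00324). Ackr2 was not called (-0.02). Downstream, the G protein subunits Gnai3 (0.78) and Gnb1 (0.59), the receptor kinase Grk5 (0.81), the arrestin Arrb1 (0.36) and Elmo1 (0.43), which links receptors to Rac, rose, while Arrb2 (-0.30) fell. Among the genes of this list not called were Gnai2 (-0.02), Rac2 (0.06), Vav1 (0.02), Dock2 (0.1) and Grk6 (0.0). Ccrl2 (0.52), which presents chemerin, rose and Cmklr1 (-0.27), the chemerin receptor, fell. Of the 25 measured genes on the list of inducers, induced genes and Dpp4, Nfkb2 rose (0.61, SE 0.14). Il1a (-0.59), Csf2 (-0.13), Nfkbia (-0.42) and Dpp4, the protease that trims Cxcl12, fell. Dpp4 changed by -1.50 (SE 0.24, limma adjusted p = 9.93e-07). The ligands of Cxcr3 left out of the family were Cxcl10, which rose by 1.96 (adjusted p = 5.26e-11), Cxcl9, which rose by 0.90 (adjusted p = 8.48e-05), and Cxcl11, which fell by 0.54 (adjusted p = 0.0117). Cxcr3 itself ran from 6.97 to 8.48 in tumors (median 7.46) and from 7.20 to 7.95 in normal liver (median 7.60), and was not called over all arrays (-0.10, adjusted p = 0.182).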

How the data were processed

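Total RNA of 58 liver samples was extracted with the miRNeasy kit and labelled with biotin for whole-transcript arrays, per the labels' protocols. The authors deposited log2 values per transcript cluster, and the submitters' processing notes name Affymetrix Expression Console as the tool. The sources used here state no version, algorithm or genome build. Array medians ran from 6.717 to 7.15. Of 41345 clusters, 23521 have 1 symbol in the platform table, 1814 several and 16010 none. For each of 22180 genes the cluster with the highest mean was used. Scanner output was not used here, so detection and batches could not be examined. The number of arrays, not a count, limits the precision.

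Groups follow the tissue label. Replicate numbers only name the arrays, and the 18 pairs come from animal names in the titles. Deviations from the group mean correlated over 0.1 in 15 of 18 pairs (median 0.241, against -0.02 between animals). limma 3.58.1 with statmod 1.5.0 in R 4.3.3 fitted tissue with the animal as a random block (correlation 0.145), moderated the variances with a trend (eBayes) and adjusted p-values by Benjamini-Hochberg over all genes, and calls needed an adjusted p under 0.05. Sex was fitted as tissue by labelled sex (block correlation 0.148). The fits were tested on simulated data. Correlations over arrays used permutation tests with 100000 resamples. Members, role groups, gene lists and the rule for named genes were chosen with earlier results of these data known. The rule names members that were called, that had over 4 tumors outside the normal range or that were among the 5 of largest SD in tumors, with their partners. Alternatives were centring, quantile normalization, no block, paired or unpaired animals alone, array weights, sex as covariate, other readings of titles, a filter on dim genes, the mean of clusters and leaving out arrays.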

Additional observations from a re-analysis of the deposited data

Results flagged for a closer look

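In groups of 4 to 10 samples, here the 9 normal livers labelled female, 12 of 49 members had an array whose gap to the next one exceeded the critical share of the range, 0.493 (Dixon's test). Chance alone gives about 1 such result in 20 groups when the groups are independent. The 49 members were measured on the same 9 arrays, so their flags are not independent. The share of all genes flagged in these livers was not computed, so the count cannot be called particular to the family. Among the 9 is normal liver 3, whose Xist and Y-linked genes went against its label. At normal liver 16 lay 11 of the 12. It was highest for Ccl17 at 7.67 (other livers 5.50 to 5.87), Ccl2 at 12.4 (7.60 to 8.72), Ccl3 at 12.54 (6.67 to 8.65), Ccl4 at 10.16 (7.62 to 8.27) and Ccl7 at 10.74 (7.82 to 8.78). The same liver was highest for Cxcl2 at 12.17 (7.39 to 8.0), Cxcl3 at 8.68 (4.94 to 5.37), Cxcl5 at 7.05 (5.69 to 6.29), Cx3cl1 at 8.38 (6.89 to 7.43) and Ccl24 at 7.95 (6.57 to 7.17). It was lowest for Ccr10 at 6.16 (6.66 to 7.06). Normal liver 19 was highest for Cxcl14 at 11.3 (7.78 to 8.44).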

How the results depend on the processing

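Of 49 members 16 were called with all arrays. The count was 4 with animals without a pair alone, 31 with array weights (14 higher and 17 lower in tumors) and 29 without tumors 9, 16, 20 and 23 and normal liver 16, an alternative chosen after seeing the data. Of those 29, 15 were also called with all arrays and Ccl11 was not among them. Leaving out 1 array at a time gave 13 to 22, the highest without tumor 20. With the animal as a fixed replicate block in the 18 pairs the count was 12, and with no replicate block 14. Over the 16 called members and the 13 settings other than leaving out 1 array there were 204 results, since Ccl8, Ccl12, Ccl20 and Ccl24 fell under the filter on dim genes. Of these 32 lost the call, 172 kept it and 0 reversed, which includes Ccl3 (lost in 6 settings), Ccl8 (5), Ccl11 (4), Cx3cr1 (4) and Ccl5 (3). The settings refit all or part of the arrays on which the members were called, so the lack of reversals is partly built in. Of the 12 ligand and receptor relations 7 passed. Without tumors 9, 16, 20 and 23, 5 of the 7 did not, Xcl1 and Xcr1 (0.00132) and Cxcl1 and Cxcr2 (0.00144) did, and Cx3cl1 and Cx3cr1 were added (adjusted permutation p = 0.029). The causes were not tested. The sex contrasts gave 0 in every alternative run. Centring moved the median change of all genes to 0.03. Signal over background was not examined, so small changes of dim genes such as Ccl12 are limited by an unknown detection level.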
